A study of Mus musculus with 4 samples.

Results

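Immediate early genes are genes whose transcripts rise within minutes of a stimulus, because the transcription factors that switch them on are already present in the resting cell. Growth factors, cytokines, calcium and mechanical or heat stress reach them through MAP kinases, serum response factor and CREB, and the transcripts are short-lived. They encode transcription factors of the AP-1, EGR, NR4A and KLF families, phosphatases that switch the MAP kinases off again, and proteins that remove messenger RNAs. In tissues digested with enzymes the same genes are known to be induced during the digestion itself, so in freshly isolated cells they are also known as dissociation response genes. The 40 genes described here were chosen by name, as members of these families and of the response to dissociation. They were chosen with earlier results of these data known, and all 40 were among the 35869 genes listed in each sample.

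RNA-seq was performed on CD45+ cells isolated from the eWAT, the fat pad beside the epididymis, of male WT C57BL/6 mice. The animals were fed ND, the control diet, or HFD, a high-fat diet that induces obesity, for 12 weeks from 8 weeks of age, and the labels name no engineered allele and no other agent for either group. The fat was minced and digested with warm collagenase before immune cells were drawn from the stromal vascular fraction with CD45 microbeads. There were 2 samples per diet, and the methods describe the same digestion for both diets. A difference in digestion between the diets cannot be told apart from an effect of diet in these samples and was not tested. The sources used here do not say how many mice each sample came from, so the p-values measure the spread between these samples only. Levels are given as TPM, the share of a gene in all transcripts of a sample after correction for gene length, and differences between the diets as log2 fold changes of log2(TPM + 1), HFD minus ND.

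The general markers of immune cells Ptprc, Cd52, Coro1a and Laptm5 summed to 2599 and 2510 TPM on ND and to 2019 and 2111 TPM on HFD. Ptprc, which encodes CD45, overlapped between the diets, with 54.5 and 59.4 TPM on ND and 55.3 and 53.7 TPM on HFD. Cd52, Coro1a and Laptm5 were lower in both HFD samples, and only Coro1a changed by at least 1.5-fold with an adjusted p-value below 0.05 in limma. The depth was estimated from the smallest step between the values of short microRNA genes, which gave approximately 37500000 to 46800000 counted reads per sample. At that depth the lowest value of any of the 40 genes by reads, that of Fosl1 in ND replicate 2, rested on approximately 436 reads. The HFD samples were less alike than the ND samples, with a spread of 3.22 times the counting error against 1.53 times. Spermatid markers summed to 7321 TPM in HFD replicate 1 against 1932 to 2209 TPM in the other samples, and fibroblast markers to 6162 TPM in HFD replicate 2 against 3073 TPM in HFD replicate 1 and at most 668 TPM on ND. Calls and values that changed without either HFD sample are given beside the gene.

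Transcripts of the immediate early and dissociation response genes were abundant in all 4 samples and lower in HFD. Together the 40 genes held 4.60% and 4.44% of all TPM on ND and 2.66% and 2.64% on HFD, a ratio of 0.587 between the diets. Of the 40, 24 fell with HFD and 2 rose, Plk2 and Dusp2, where a call required at least a 1.5-fold difference with a limma adjusted p-value below 0.05. Over all 16849 genes tested, 10.3% were called lower and 8.08% higher by the same rule. Another 6 genes (Dusp1, Dusp5, Dusp6, Btg1, Gadd45b and Rhob) passed the p-value threshold but differed by less than 1.5-fold, none of these 6 passed it after median-ratio scaling, and 8 genes did not pass it. Of all genes tested, 27.3% passed it at any fold. Both HFD samples lay below both ND samples in 33 genes and above them in 5, against 32.8% and 34.1% of all genes tested, and only Klf10 and Tob1 overlapped between the diets. The median log2 fold change of the 40 genes was -0.68, and that of all genes tested was 0.056.

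**Figure D1:**
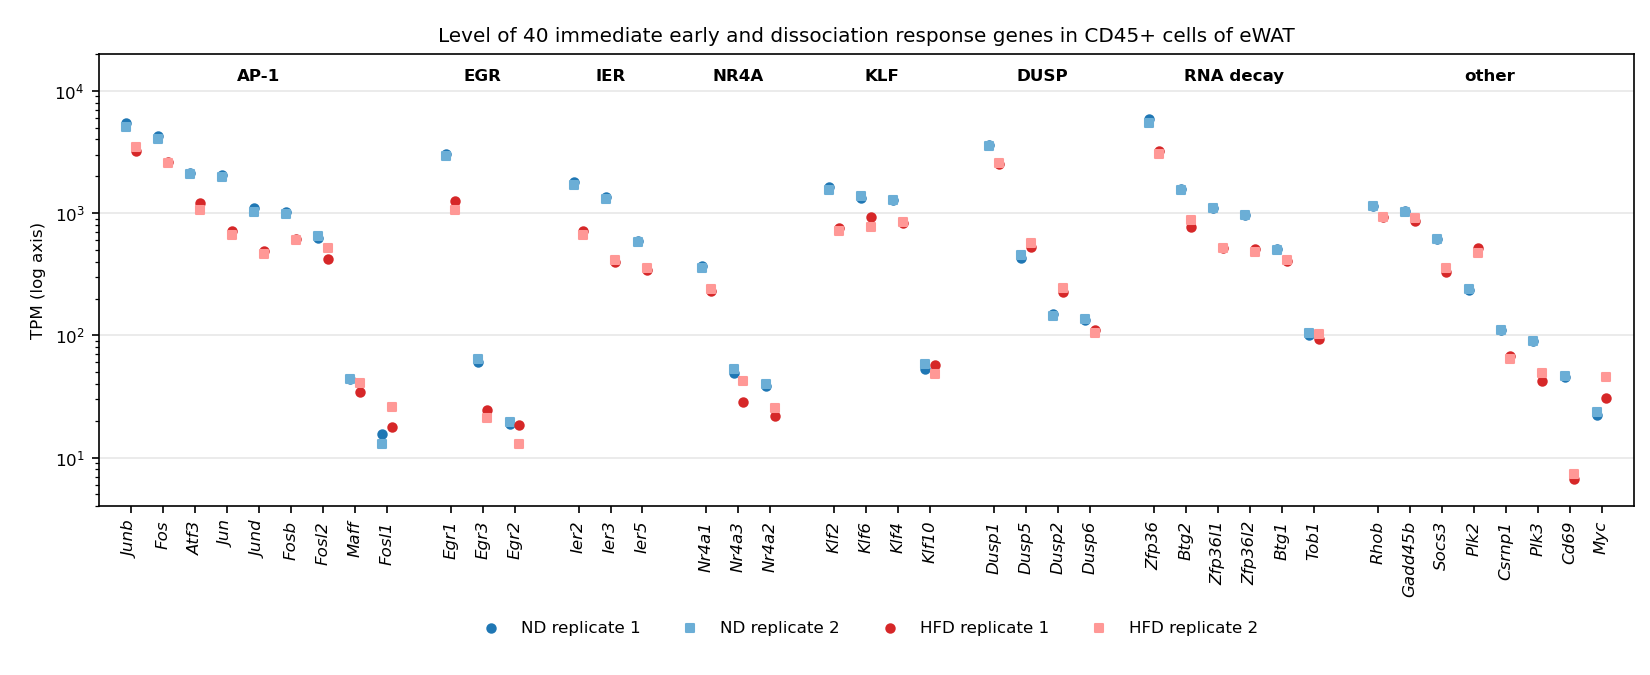
TPM on a log axis of each of the 40 genes in the 2 ND samples (blue) and the 2 HFD samples (red), grouped by family and ordered by level in ND. Most genes lie lower in both HFD samples, while Plk2, Dusp2, Dusp5, Myc and Fosl1 lie higher.

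Of the 40 genes, 23 were called lower without HFD replicate 1, where Junb was lost, and 25 without HFD replicate 2, where Klf6 was lost. In those fits the spread came from the ND samples alone, which were the more alike, and a single HFD sample was assumed to vary as they did. Without either ND sample, where the spread came from the HFD samples alone, limma called 0 of the 40 genes and 0 of all genes tested, although 29 of the 40 had an unadjusted p-value under 0.05 without ND replicate 1 and 28 without ND replicate 2, where 3862 and 4024 of all 16849 genes did. The direction was lower in 35 genes and higher in 5 in both of those fits. The median absolute log2 difference between the replicates was 0.046 in ND and 0.095 in HFD, and 0 of the 40 genes differed by 1.5-fold between the replicates of either diet, against a median absolute difference of 0.707 between the diets. Over all genes tested the replicates differed by a median of 0.087 in ND and 0.158 in HFD, with 491 and 3082 genes at 1.5-fold or more, and the diets by 0.322.

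**Figure D2:**
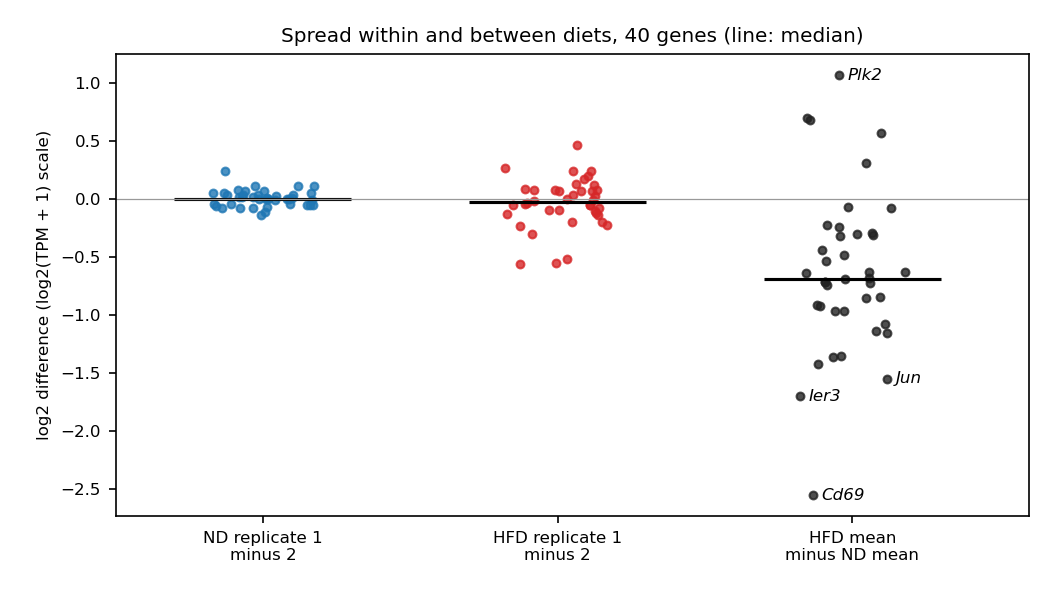
Each point is a gene, and the vertical axis is the log2 difference on the log2(TPM + 1) scale between the ND replicates (blue), between the HFD replicates (red) and between the means of the diets (black), with the median as a line. The medians are 0.005, -0.026 and -0.683, and the genes with the widest spread in HFD are Nr4a3, Myc, Fosl1 and Egr2.

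The decrease was found at high and low levels. The 13 genes that averaged 1000 TPM or more over the 4 samples had a median log2 fold change of -0.85, and 11 of them fell. Among all 157 genes tested with such a mean, 17.2% were called lower. Of the 16 genes between 100 and 1000 TPM, 8 fell and 2 rose, where 11.7% of all genes at that level were called lower and 14.1% higher. Of the 11 genes below 100 TPM, 5 fell, where 10.1% of all genes at that level were called lower. These groups were formed from the mean over both diets.

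The AP-1 family contains the basic leucine zipper proteins that pair with each other on the AP-1 site, and 6 of its 9 genes fell, with a median log2 fold change of -0.68. Junb was the most abundant, with 5419 and 5029 TPM on ND and 3238 and 3456 TPM on HFD. Its partner Fos, the founding member of the family, had 4244 and 4048 TPM on ND and 2623 and 2553 TPM on HFD. Both genes were lower in both HFD samples, and the decreases were 0.64 (standard error, SE, 0.062, adjusted p = 0.0126) and 0.68 (SE 0.041, adjusted p = 0.00687) on the log2 scale in limma. Jun, which encodes the main partner of Fos, fell the most of the family. It had 2045 and 1988 TPM on ND and 716 and 659 TPM on HFD, a level 2.93 times higher in ND (log2 fold change -1.55, SE 0.057, adjusted p = 0.00449 in limma). Jund, a Jun protein that is present in most resting cells, had 1098 and 1017 TPM on ND and 489 and 465 TPM on HFD and fell by 1.15 on the log2 scale (adjusted p = 0.0058 in limma). The shares within the family shifted. Jun held 12.3% and 12.5% of the TPM of the family in ND and 7.66% and 7.02% in HFD, while Junb held 32.6% and 31.7% in ND and 34.6% and 36.8% in HFD.

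Atf3, a stress-induced repressor, had 2141 and 2105 TPM on ND and 1202 and 1068 TPM on HFD, with no overlap between the diets and a log2 fold change of -0.91 (adjusted p = 0.00966 in limma). Fosb fell from 1013 and 976 TPM to 614 and 602 TPM (-0.71, adjusted p = 0.00598 in limma), close to the proportion of Fos. Fosl2, which replaces Fos late in a response, had 623 and 644 TPM on ND and 421 and 520 TPM on HFD. It was lower in both HFD samples but not called (log2 fold change -0.44, adjusted p = 0.0844 in limma), whereas it was called at -0.59 without HFD replicate 2 and stood at -0.29, not called, without HFD replicate 1. Maff, a small MAF protein without an activation domain, had 44.2 and 44.1 TPM on ND and 34.2 and 40.4 TPM on HFD and was not called either (-0.24, with -0.13 without HFD replicate 1 and -0.36, under the fold limit at an adjusted p of 0.0368 in limma, without HFD replicate 2). Fosl1 was the only AP-1 gene that lay higher in both HFD samples, with 15.5 and 13 TPM on ND and 17.8 and 26.0 TPM on HFD, and its difference of 0.57 was not past the threshold (adjusted p = 0.164 in limma), with 0.83 without HFD replicate 1 and 0.31 without HFD replicate 2, and it was not called in either fit. Fos and Junb were not called after median-ratio scaling (adjusted p = 0.0545 and 0.0906 in limma) or after quantile normalization (log2 fold change -0.48 and -0.42), and Junb was not called without HFD replicate 1 (-0.59, adjusted p = 0.0564).

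The EGR proteins are zinc finger transcription factors induced through serum response factor, and the family fell mainly through Egr1, which held at least 96.7% of its TPM in every sample. Egr1 had 3017 and 2907 TPM on ND and 1254 and 1062 TPM on HFD. All HFD values were below all ND values, and the log2 fold change was -1.36 (SE 0.10, adjusted p = 0.0087 in limma). Egr3, a paralog at a far lower level, had 60.9 and 63.9 TPM on ND and 24.4 and 21.1 TPM on HFD, a decrease of 1.42 on the log2 scale (adjusted p = 0.0077 in limma) that was close to that of Egr1. Egr2 was lower in both HFD samples but not called. It had 18.9 and 19.4 TPM on ND against 18.4 and 13 TPM on HFD, the second HFD sample lying apart. The difference was -0.29 (adjusted p = 0.343 in limma), with -0.53 (adjusted p = 0.0435, under the fold limit) without HFD replicate 1 and -0.055 without HFD replicate 2.

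All 3 IER genes, small intronless or nearly intronless genes of the first response, fell. Ier3, which encodes a regulator of survival and ERK signaling, had 1345 and 1308 TPM on ND and 401 and 416 TPM on HFD. It was 3.25 times higher in ND, the largest difference among the genes above 100 TPM in both diets (log2 fold change -1.70, SE 0.040, adjusted p = 0.00378 in limma). Ier2 fell from 1793 and 1710 TPM to 710 and 667 TPM, or by 1.35 on the log2 scale (adjusted p = 0.00477 in limma). Ier5 fell less, from 589 and 580 TPM to 343 and 354 TPM (-0.74, adjusted p = 0.00555 in limma), and its share of the family total rose from 15.8% and 16.1% to 23.6% and 24.6%.

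The NR4A proteins are orphan nuclear receptors that need no ligand and are induced by antigen receptors, cyclic AMP and stress. Nr4a1 held 77.9% to 82.2% of the family, with 369 and 359 TPM on ND and 231 and 239 TPM on HFD. It fell by 0.63 on the log2 scale (adjusted p = 0.00761 in limma). Nr4a2 fell by 0.71, from 38.5 and 39.8 TPM to 21.7 and 25.4 TPM (adjusted p = 0.0233 in limma). Both were lower in both HFD samples and neither was called after median-ratio scaling (adjusted p = 0.0504 and 0.065 in limma). Without the filter on low values Nr4a2 was not called (adjusted p = 0.0513). Nr4a3 differed between the HFD replicates, with 28.5 and 42.6 TPM against 48.9 and 52.7 TPM on ND, and was called only when HFD replicate 2 was left out (-0.81 in that fit, -0.25 without HFD replicate 1 and -0.53 with all samples).

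The KLF proteins are zinc finger factors with roles in quiescence and myeloid differentiation, and 3 of 4 fell. Klf2, which keeps lymphocytes and endothelial cells quiescent and restrains inflammatory genes in macrophages, had 1645 and 1558 TPM on ND and 749 and 708 TPM on HFD. It was lower in both HFD samples, with a log2 fold change of -1.14 (SE 0.052, adjusted p = 0.00536 in limma). Klf4, a factor of monocytes and macrophages, had 1288.2 and 1287.9 TPM on ND and 827 and 842 TPM on HFD and fell by 0.63 (adjusted p = 0.00555 in limma). Klf6 fell by 0.69 from 1318 and 1391 TPM to 924 and 765 TPM (adjusted p = 0.0316 in limma). Klf10, which is induced by TGF-beta, overlapped between the diets, with 53.0 and 58.4 TPM on ND and 57.4 and 48.3 TPM on HFD (-0.08, with -0.20 without HFD replicate 1 and 0.044 without HFD replicate 2). Klf4 was not called after median-ratio scaling (adjusted p = 0.0531 in limma) or quantile normalization (-0.57), and Klf6 was not called without HFD replicate 2 (-0.55) or without the filter on low values (adjusted p = 0.0684).

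The genes of RNA decay and antiproliferation included Zfp36, the most abundant transcript of the 40 on ND and, after Junb, the second on HFD. It encodes tristetraprolin, which binds AU-rich elements in cytokine mRNAs and brings about their decay, and had 5874 and 5425 TPM on ND and 3210 and 3062 TPM on HFD. By mean TPM it ranked 10 among all genes in ND and 27 in HFD. Its paralogs Zfp36l1, with 1098 and 1108 TPM on ND and 518 and 522 TPM on HFD, and Zfp36l2, with 968 and 971 TPM on ND and 513 and 483 TPM on HFD, lay at similar levels. The 3 paralogs all fell, by 0.85, 1.08 and 0.96 on the log2 scale (adjusted p = 0.00814, 0.00411 and 0.00536 in limma), although Zfp36 missed the fold limit by a small margin after quantile normalization (-0.58). Btg2, an antiproliferative protein that recruits the CCR4-NOT deadenylase, fell by 0.92 from 1570 and 1546 TPM to 768 and 883 TPM (adjusted p = 0.0115 in limma). Its relatives moved less. Btg1 had 505 and 500 TPM on ND and 403 and 411 TPM on HFD, a difference of -0.30 under the fold limit (adjusted p = 0.0157 in limma), and Tob1 overlapped between the diets at 92.8 to 105 TPM (-0.07, with 0.0024 without HFD replicate 1 and -0.14 without HFD replicate 2).

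**Figure D3:**
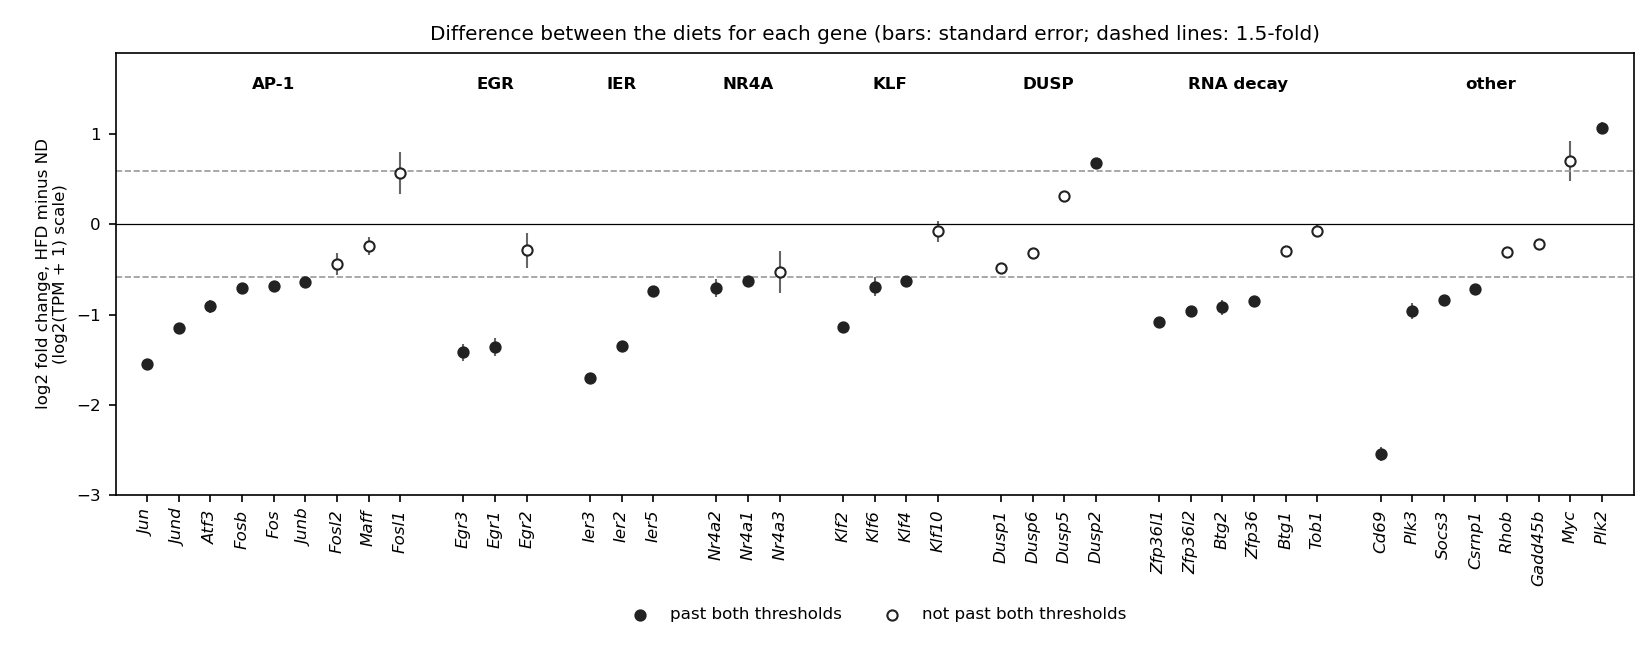
Log2 fold change of each gene, HFD minus ND, with its standard error, grouped by family. Filled points are past both thresholds and dashed lines mark a 1.5-fold change, with 24 filled points below the lower line, Plk2 and Dusp2 above the upper line, and Myc above it as an open point.

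The DUSP phosphatases, which remove the phosphates of the MAP kinases and are themselves induced by them, did not share a direction. By limma all 4 passed an adjusted p-value of 0.05, with Dusp1 and Dusp6 lower and Dusp2 and Dusp5 higher, and after median-ratio scaling 0 of the 4 passed, in the same directions (adjusted p = 0.119 for Dusp1, 0.0897 for Dusp6, 0.0575 for Dusp2 and 0.27 for Dusp5). Dusp1, a nuclear phosphatase of p38 and JNK, was among the most abundant of the 40 genes, with 3610 and 3504 TPM on ND and 2497 and 2589 TPM on HFD. It was lower in both HFD samples by 0.48 on the log2 scale (adjusted p = 0.00957 in limma), less than the 1.5-fold limit, and by 0.27 after quantile normalization. Dusp6, a cytoplasmic phosphatase of ERK, also lay lower, with 133 and 137 TPM on ND and 111 and 105 TPM on HFD (-0.32, adjusted p = 0.0305 in limma, 0.0518 without HFD replicate 1 and 0.0547 without HFD replicate 2). Dusp2, a nuclear phosphatase of activated immune cells, went the other way, with 149 and 144 TPM on ND and 228 and 244 TPM on HFD. It rose by a log2 fold change of 0.68 (SE 0.054, adjusted p = 0.00965 in limma), and was not called after median-ratio scaling or, at 0.52, after quantile normalization. Nor was Dusp2 called with a replicate block, which adds a term for the replicate number to the fit. Dusp5, which holds ERK in the nucleus, was higher in both HFD samples at 528 and 572 TPM against 430 and 455 TPM on ND, a difference of 0.31 (adjusted p = 0.0454 in limma, 0.0704 without HFD replicate 1 and 0.0909 without HFD replicate 2). Dusp1 held 83.5% and 82.7% of the TPM of these phosphatases in ND and 74.2% and 73.8% in HFD.

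**Figure D4:**
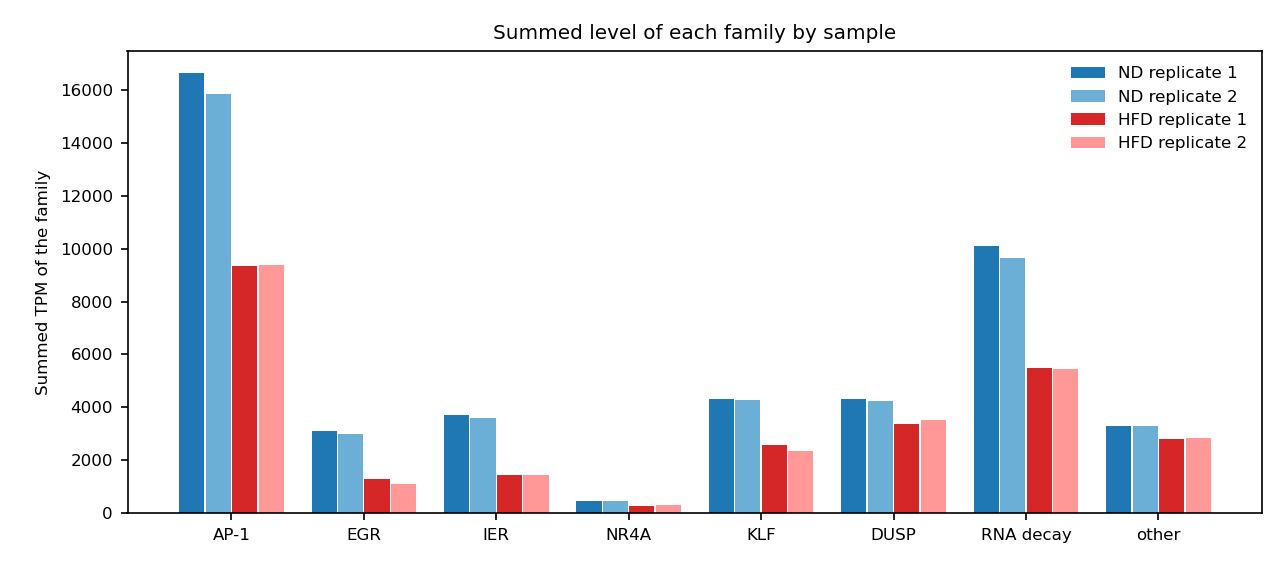
Summed TPM of each family in each sample, with ND in blue and HFD in red. The EGR and IER sums in HFD are 0.393 and 0.395 of those in ND, the DUSP sum is 0.803 and the sum of the other genes 0.852.

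The remaining 8 genes contained both the largest decrease and the largest increase. Cd69, an early activation marker of lymphocytes that retains them in tissues, had 45.2 and 46.8 TPM on ND and 6.7 and 7.4 TPM on HFD. It was 6.52 times higher in ND and did not overlap between the diets (log2 fold change -2.55, SE 0.077, adjusted p = 0.00415 in limma). Plk2, a kinase of centriole duplication and of the response to stress, had 233 and 240 TPM on ND and 521 and 476 TPM on HFD. Its level was 2.11 times higher in HFD, opposite to most of the genes (log2 fold change 1.07, SE 0.062, adjusted p = 0.00639 in limma). The related kinase Plk3 fell instead, from 89.6 and 89.3 TPM to 42.4 and 48.8 TPM, or by 0.96 on the log2 scale (adjusted p = 0.0116 in limma). Plk2 was past both thresholds in every fit that kept both ND samples.

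Socs3, the feedback inhibitor of IL-6 family receptors, fell from 616 and 614 TPM to 332 and 354 TPM (-0.84, adjusted p = 0.00626 in limma). Csrnp1, a nuclear protein first found as induced by AXIN1, fell from 110.0 and 109.9 TPM to 67.8 and 64.5 TPM (-0.72, adjusted p = 0.00768 in limma). Rhob and Gadd45b were abundant and moved little. Rhob, a short-lived small GTPase of endosomes, had 1142 and 1148 TPM on ND and 925.1 and 924.9 TPM on HFD (-0.31, adjusted p = 0.0126 in limma), and Gadd45b, a stress-induced activator of MAP3K4, had 1047 and 1025 TPM on ND and 863 and 914 TPM on HFD (-0.22, adjusted p = 0.0465 in limma and 0.0645 without HFD replicate 1). Both lay lower in both HFD samples and under the 1.5-fold limit. Myc, the transcription factor of growth, had 22.1 and 23.4 TPM on ND and 31.0 and 45.8 TPM on HFD. It was higher in both HFD samples with a wide spread and was not called (0.70, adjusted p = 0.103 in limma), while it was called at 0.98 without HFD replicate 1 and stood at 0.43, not called, without HFD replicate 2.

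In bulk samples fewer cells of a type and less RNA per cell cannot be told apart, and marker lists of several cell types moved with the diet. Of 7 T cell markers 7 fell, and they summed to 168 and 185 TPM on ND against 25.6 and 41.9 TPM on HFD, a ratio of 0.191 beside 0.153 for Cd69. The 7 NK cell markers also fell, from sums of 348 and 361 TPM to 68.7 and 60.9 TPM, as did 5 of 6 markers of ILC2, from 83.4 and 87.8 TPM to 11.9 and 13 TPM. None of these markers was at 0 in all samples. All 8 markers of resident macrophages fell, with a ratio of sums of 0.302, and 10 of 11 markers of lipid-associated macrophages rose, with a ratio of 4.62. Markers of macrophages in general, led by Lyz2, changed less than the 40 genes, with sums of 19729 and 19084 TPM on ND and 16083 and 16928 TPM on HFD, where 2 of 10 rose and 1 fell. Markers of mast cells (7 of 7), B cells (6 of 6), neutrophils (6 of 6), regulatory T cells (4 of 5), monocytes (3 of 6) and dendritic cells (3 of 8) fell as well, and of the eosinophil markers, with Epx at 0 in all samples, 2 of 4 fell. Fibroblast markers rose in 5 of 9 genes and proliferation markers in 9 of 10, 0 of 7 endothelial markers were called, 1 adipocyte marker rose and 2 fell, 1 of 6 mesothelial markers fell, and 0 of 8 spermatid markers were called. The part of these shifts in the decrease of the immediate early genes was not tested.

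**Figure D5:**
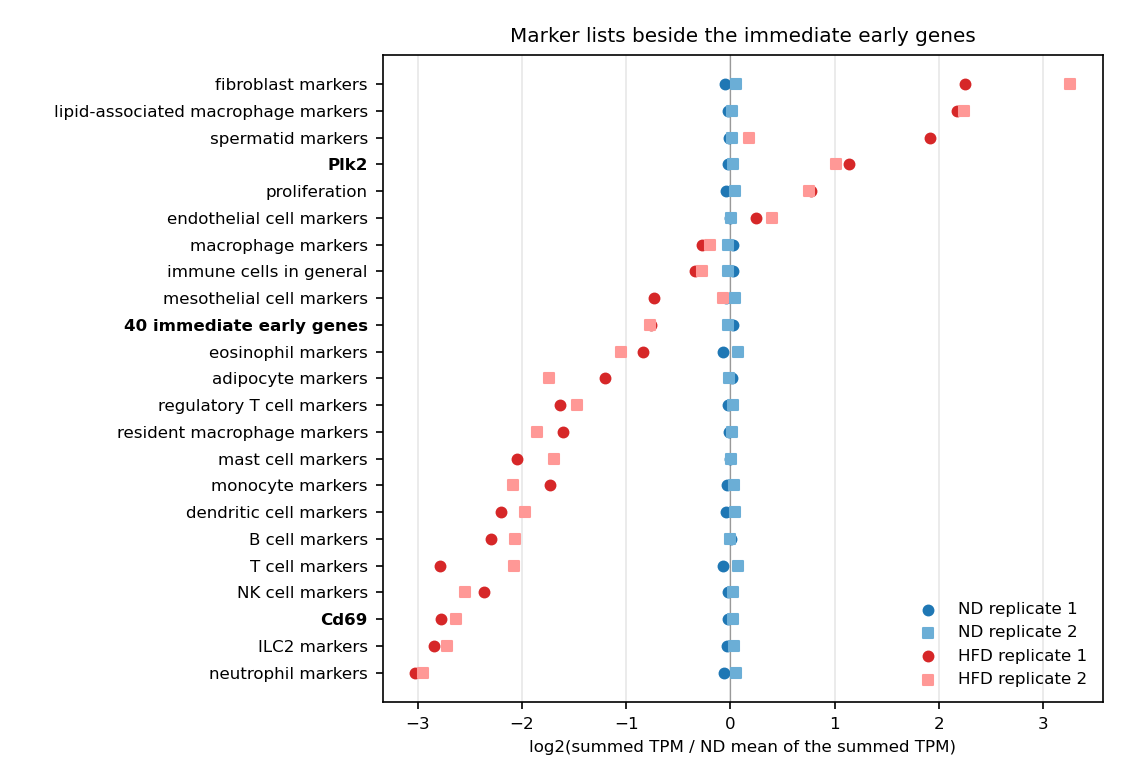
Summed TPM of each list of cell type markers in each sample, divided by its mean in ND, on a log2 axis, with the 40 immediate early genes, Cd69 and Plk2 in bold. The sum of the 40 genes in HFD, 0.587 of ND, lies below that of the macrophage markers, 0.85 of ND, and above those of lymphocytes, with Cd69 among the NK cell, T cell and ILC2 lists.

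Other genes of the same pathways were examined by list. Over all genes tested, 10.3% were called lower and 8.08% higher by the same rule. Of the 32 tested kinases and ternary complex factors that lie upstream, 3 rose and 1 fell, with a median log2 fold change of 0.07. The gene that fell was Map3k8, the kinase that activates ERK downstream of Toll-like receptors, which fell by 0.96 from 88.1 and 96.7 TPM to 50.5 and 43.7 TPM, while Rps6ka2 (0.77) and Mkl2 (0.65) rose. Other AP-1, MAF, ATF and BATF factors fell in 5 of 21 genes tested and rose in 0. The largest decreases were in Batf3, a factor of dendritic cells (-1.67), Maf (-1.53) and Batf (-1.40). Of 11 other KLF and SP factors 3 fell, Klf11 (-0.86), Klf3 (-0.81) and Sp4 (-0.62), and 0 rose. Both HFD samples lay below both ND samples in 9 of the 11, against 32.8% of all genes tested.

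A list of other feedback inhibitors also held genes of other kinds, such as Pmaip1, Sgk1 and Cdkn1a. Of its 29 genes 4 were higher and 5 lower, against 8.08% and 10.3% of all genes tested. Cish, a target of STAT5, fell by 1.67, from 27.3 and 27.2 TPM to 7.5 and 8.3 TPM, and Pmaip1 fell by 1.55, while Sgk1, a kinase induced by glucocorticoids, rose by 1.43. Of 25 genes of the RNA decay machinery 1 rose, Zc3h12c (0.98), and 3 fell, of which Zcchc6 (-0.73) and Tob2 (-0.66) were the largest. The heat shock genes known from dissociated tissue did not share a direction. Hspa1a, an inducible HSP70 gene, had 292 and 304 TPM on ND and 130 and 113 TPM on HFD and fell by 1.29, whereas Hsph1 (1.22) and Bag3 (1.16), a co-chaperone with 110 and 106 TPM on ND and 224 and 263 TPM on HFD, rose, and in all 3 of 15 rose and 4 fell. Hspa1a and its near-identical copy Hspa1b may share reads. A list of early cytokine and chemokine genes also held other early genes, such as Ptgs2, Irf1, Bhlhe40 and Pim3. Of its 32 genes 11 fell and 4 rose. Vegfa, the growth factor of blood vessels, rose by 1.56, while Ccl7, a chemokine of monocytes, fell by 1.55, from 1555 and 1571 TPM to 585 and 486 TPM, and Cxcl10 fell by 1.54.

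Most of the 40 genes were compact, which their selection by name did not use. In GENCODE vM21 for mm10 they had a median span of 5285 bases and a median of 4 merged exon blocks, against 21545 bases and 9 blocks in 13120 protein-coding genes tested. Spans below 10000 bases were found in 77.5% of the 40 and in 27.6% of the protein-coding genes tested. Jun, Jund, Ier2, Ier5, Rhob and Zfp36 consisted of 1 exon block. Blocks were merged over all annotated transcripts of a gene, which can hide an intron of a single transcript. Within the 40, the 31 genes with a span below 10000 bases had a median log2 fold change of -0.71. They contained 20 of the decreases and both increases, and the 9 longer genes had a median of -0.53. Among these 9, the spans of Dusp1 (56539 bases) and Nr4a1 (20527 bases) began far upstream of the start given by RefSeq. From that start both genes would be far shorter. Junb and Ier2 lie on chromosome 8 of mm10, at 84974484 to 84978718 and 84661331 to 84662852. Genes on the opposite strand share exon bases with some of the 40, and although the libraries were made with a stranded mRNA kit, how strand was used in counting is not given in the sources used here. They include Prdx2, which shares 173 bases with Junb and had 99.1 and 102 TPM on ND and 138 and 155 TPM on HFD, and Ccdc85b, which shares 1163 bases with Fosl1 and had 13.1 to 14.6 TPM in all samples, close to the level of Fosl1 on ND. If counting did not use strand, reads of Fosl1 and Ccdc85b could not be told apart over the shared bases.

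Promoters from RefSeq for GRCm38.p6, 250 bases before to 50 after the transcription start, were found for 32 of the 40 genes and were searched on both strands for the sites through which immediate early genes are known to be induced. Cd69, Egr1, Egr3, Fosl1, Ier2, Klf10, Myc and Zfp36l2 were not searched. The window of Jund, chr8:70697489-70697788, ended before the GENCODE start of the gene at 70698949. Only exact matches within the windows were counted, so variant sites and sites further upstream were missed. The EGR site, GCGTGGGCG or GCGGGGGCG, was present in 9 of 32 genes (28.1%) and in 6.54% of 11783 genes tested with a promoter. The CRE bound by CREB, TGACGTCA, was present in 4 (12.5%, against 3.22%), and the CArG box bound by serum response factor in 3 (9.38%, against 1.54%). The AP-1 site, TGACTCA or TGAGTCA, was found in 1 (3.12%, against 4.93%) and the ETS site, CCGGAAGT, in 0 (against 7.70%). No match of one kind overlapped a match of another kind. The promoters of the 32 genes were richer in G and C, with a median of 64.7% against 59.3%, and the part of base composition in these counts was not tested. The promoters of 5 genes are shown because they carry a CRE or a CArG box and belong to genes that moved in different directions. They are written 5′ to 3′ in the direction of transcription with the matches in capitals.
Zfp36, which fell, chr7:28379179-28379478, minus strand, with an EGR site at position -105 and a CArG box at -58 from the start: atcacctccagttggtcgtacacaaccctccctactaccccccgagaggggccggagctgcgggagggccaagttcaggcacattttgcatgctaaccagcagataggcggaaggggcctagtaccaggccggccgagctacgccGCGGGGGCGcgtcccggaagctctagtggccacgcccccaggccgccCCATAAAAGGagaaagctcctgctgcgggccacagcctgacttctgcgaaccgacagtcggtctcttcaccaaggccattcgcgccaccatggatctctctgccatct
Btg2, which fell, chr1:134079106-134079405, minus strand, with a CRE at -166: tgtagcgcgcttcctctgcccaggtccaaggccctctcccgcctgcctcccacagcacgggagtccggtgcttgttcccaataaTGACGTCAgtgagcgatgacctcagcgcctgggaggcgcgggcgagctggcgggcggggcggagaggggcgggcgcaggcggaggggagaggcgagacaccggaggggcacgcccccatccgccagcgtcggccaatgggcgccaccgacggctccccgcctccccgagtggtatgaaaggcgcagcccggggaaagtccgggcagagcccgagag
Dusp1, lower by less than 1.5-fold, chr17:26508423-26508722, minus strand, with a CRE at -143: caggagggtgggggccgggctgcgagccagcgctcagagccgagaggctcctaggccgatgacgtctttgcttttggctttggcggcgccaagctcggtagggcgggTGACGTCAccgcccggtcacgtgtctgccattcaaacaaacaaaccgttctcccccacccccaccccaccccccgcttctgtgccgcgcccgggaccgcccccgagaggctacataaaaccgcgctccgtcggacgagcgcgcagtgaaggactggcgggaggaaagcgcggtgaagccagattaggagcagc
Plk2, which rose, chr13:110394794-110395093, plus strand, with a CRE at -62: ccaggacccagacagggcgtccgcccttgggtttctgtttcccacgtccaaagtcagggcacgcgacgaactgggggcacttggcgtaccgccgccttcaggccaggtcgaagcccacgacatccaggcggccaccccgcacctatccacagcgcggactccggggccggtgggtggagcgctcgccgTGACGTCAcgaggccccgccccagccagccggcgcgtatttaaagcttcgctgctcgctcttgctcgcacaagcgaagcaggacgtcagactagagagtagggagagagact
Dusp5, higher by less than 1.5-fold, chr19:53528895-53529194, plus strand, with adjoining CArG boxes at -82 and -72: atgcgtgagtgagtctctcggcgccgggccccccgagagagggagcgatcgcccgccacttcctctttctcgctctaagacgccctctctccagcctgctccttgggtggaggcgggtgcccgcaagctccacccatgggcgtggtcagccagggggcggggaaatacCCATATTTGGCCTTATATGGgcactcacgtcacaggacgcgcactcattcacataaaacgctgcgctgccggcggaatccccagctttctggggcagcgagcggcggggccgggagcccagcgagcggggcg
The CRE was thus present in genes that fell (Btg2, log2 fold change -0.92) and that rose (Plk2, 1.07), and the CArG box in Zfp36 (-0.85), Egr2 (-0.29) and Dusp5 (0.31). EGR sites were found in Fosb, Klf2, Klf4, Zfp36, Nr4a1 and Socs3, which all fell, in Fosl2 and Maff, which were not called, and in Dusp2, which rose.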

How the data were processed

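RNA-seq of CD45+ cells from eWAT was compared between HFD and ND, with 2 samples each. The authors trimmed the reads with Trim Galore 0.4.2 and cutadapt 1.9.1, aligned them to mm10 with STAR 2.6.1e, removed duplicate reads, counted them with featureCounts 1.6.2 and deposited TPM per gene, printed to 1 decimal (tools per the labels and the methods of the study). The annotation and the strand setting are not given in the sources used here. TPM are shares of a sample's RNA, and removing duplicates can lower the most abundant short transcripts.

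The deposited TPM of 16849 genes with at least 1 TPM in at least 2 samples were compared as log2(TPM + 1) in limma 3.58.1 under R 4.3.3, with a variance trend and Benjamini-Hochberg adjustment over all genes tested. The added 1 makes changes of low genes smaller. A gene was called with an adjusted p-value under 0.05 and at least 1.5-fold. The smallest p of an exact permutation test with 2 samples per diet is 0.333, and none was used. Fits were tested on simulated data. The 40 genes, their families and the lists of pathway and marker genes were chosen with earlier results of these data known. All 40 are named with their TPM, called genes also with the log2 fold change and adjusted p-value and the leading ones with the standard error, and from each pathway list the 3 called genes with the largest change, with others named in places. Of the lists, genes without a matching symbol were left out.

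Reads per gene were approximated from the TPM steps of 210 to 255 microRNA genes and exon lengths of GENCODE vM21. Python 3.11.15 and matplotlib 3.10.9 served for tables and figures.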

Additional observations from a re-analysis of the deposited data

How the results depend on the processing

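The number of the 40 genes called was 26, of which 24 were lower. With a change of at least 2-fold it was 10, of which 9 were lower. Across the fits that each left out a sample it ran from 0 to 27, and of the genes called lower from 0 to 25, the 0 standing for both fits without an ND sample. Over all genes 3097 were called, with 2015 at a pseudocount of 5, 812 with a replicate block and 1604 at 2-fold, and 0 to 4227 with a sample left out. Of the pathway genes 47 were called, with 21 under the replicate block, 20 at 2-fold, 73 without a fold limit and 0 to 46 with a sample left out. Both diets carry the numbers 1 and 2, but equal numbers did not go with shared deviations from the diet means (correlation across genes -0.015), and the samples were not paired. With the replicate block 18 of the 40 genes were called, 17 of them lower, and it leaves fewer degrees of freedom. The genes no longer called with it were Junb, Dusp2, Klf6, Btg2, Nr4a1, Nr4a2, Plk3 and Csrnp1.

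The median log2 fold change of the 40 genes, -0.68, was -0.64 after quantile normalization and -0.74 after rescaling without the 50 most abundant genes. With a sample left out that of all genes, 0.056, ran from -0.074 (without HFD replicate 1) to 0.111. That of the DUSP genes lay near 0, turned to 0.0015 at a pseudocount of 5 and ran from -0.034 to 0.029 with a sample left out. Klf10 ran from -0.20 to 0.044 and Tob1 from -0.14 to 0.0024, and neither was called. The causes were not tested. Leaving out either HFD sample gave 34 lower and 6 higher genes of the 40, and in each other fit 35 were lower and 5 higher. With at least approximately 436 reads behind each value, precision rested on the 2 samples per diet more than on depth.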
